A study of Mus musculus with 50 samples.

Results

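Loss of Gopc, Pick1, Agfg1, Csnk2a2, Spata16 or Dpy19l2 is known, in mouse or in human, to give sperm with round heads and no proper acrosome, and these 6 genes were followed on 2-colour arrays of wobbler mice. The rule names the genes and uses no threshold on these data. In the probe annotation used here, 3 of the 6 genes had a probe: Agfg1 with probes 10921 and 19664, Csnk2a2 with probes 6547, 16449, 18978 and 20179, and Spata16 with probe 13169. These were 7 of 20355 probes and 3 of 9930 named genes. Gopc, Pick1 and Dpy19l2 were not named in that annotation, either by symbol or by gene ID, and were not analysed here.

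Testis RNA of 10 wr/wr mice, homozygous for the wobbler mutation, was set against RNA from 1 pool of wild-type testes, with 4 arrays for each mutant mouse. Spinal cord RNA of wr/wr mice, in 3 RNAs, was set against 1 pool of wild-type cords: the cord of mouse 5995 alone, and Pool1 and Pool2 of 4 mice each. All 9 cord mice were among the 10 testis mice, and their ages and strain backgrounds are unknown here. The sample labels list 10 wild-type mice for a pool whereas the labelling protocol speaks of 6, and with 1 pool for each tissue the spread among wild-type mice was not measured.

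The acrosome is a secretory cap that round spermatids build from vesicles leaving the Golgi apparatus, and that is anchored to the nucleus while the head elongates. When vesicles fail to arrive, to fuse or to stay attached, the head remains round, a condition called globozoospermia. The wobbler mutation lies in Vps54, a subunit of a tethering complex for vesicles that return to the Golgi, and wr/wr males make round-headed sperm. Vps54 had 0 named probes, so the mutated gene gave no check of the labels.

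Each value below is a log2 ratio of wr/wr over wild type, averaged over both dye orientations of 1 RNA. That direction is likely but no label states it: it rests on the labels, which name the mutant RNA as channel 1 on every array. Arrays of 1 RNA in opposite dyes had a median correlation across all probes of only 0.0083 in testis and -0.046 in cord, and this does not settle the direction. Arrays of the same dye but of different RNAs gave none below -0.3 (0 of 360 pairs in testis and 0 of 16 in cord). Ratios carry no level, so nothing can be said of how strongly a gene was expressed. In whole tissue, fewer cells of a type and less RNA per cell cannot be told apart.

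The testis of mouse 6065 stood apart from the others. Its arrays had the widest ratios of any testis, with a median absolute deviation over all probes of 0.519 against 0.209 to 0.389 in the other 9 mice. Its Cy5 and Cy3 arrays also had the lowest correlation of the 10 mice (Spearman rho of -0.31 over all probes). That rho was below 0 in mice 5905 (-0.22) and 5997 (-0.11) as well. The member values that moved most without mouse 6065 are given both ways.

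None of the 7 probes passed the test in wr/wr testis. Over the 10 mice, 0 of 7 probes had an adjusted p under 0.05 (limma, Benjamini-Hochberg over 20218 probes), against 12.3% of all probes tested. At an unadjusted p under 0.05 there were 3 of 7 probes, against 30.3% of all. The mean log2 ratios of the 7 probes lay between -0.12 and 0.18 with a median of 0.04, beside a median of -0.01 over all probes. All 7 intervals at 95% together ran from 0.857-fold to 1.26-fold of wild type, so larger mean differences from this pool lay outside them. Probe by probe, 4 intervals included 0 and 3 did not.

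Spata16 encodes a testis-specific protein of the Golgi and of proacrosomal vesicles, whose mutation was tied to round-headed sperm in human patients. Its log2 ratio in wr/wr testes had a lowest value of -0.19 in mouse 5997, a median of 0.27 and a highest value of 0.53 in mouse 5907. It was above the wild-type pool in 7 of 10 mice, and mice 5905, 5995 and 5997 lay below it. The mean was 0.18 ± 0.23 (SD, n = 10), or 1.14-fold with a 95% interval of 1.02 to 1.26, and the adjusted p from limma was 0.106. An exact sign-flip permutation test over the 10 mice gave a two-sided p of 0.0371, not adjusted over probes, where 0.00195 is the smallest value possible. Both dye orientations gave a mean above 0, with 0.21 on Cy5 arrays and 0.15 on Cy3 arrays.

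Mice differed in Spata16 by more than repeat arrays did. The SD among mice of 0.233 was 3.25 times the 0.0717 expected of a mouse's value from its repeat arrays, a ratio at the 96.8th percentile of all probes tested, whose median ratio was 1.24. For the other 6 probes this ratio ran from 0.961 to 1.21. The spread of the Agfg1 and Csnk2a2 probes among mice was thus close to that of repeat arrays of 1 mouse, and Spata16 alone of the 7 exceeded the median of all probes.

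**Figure D1:**
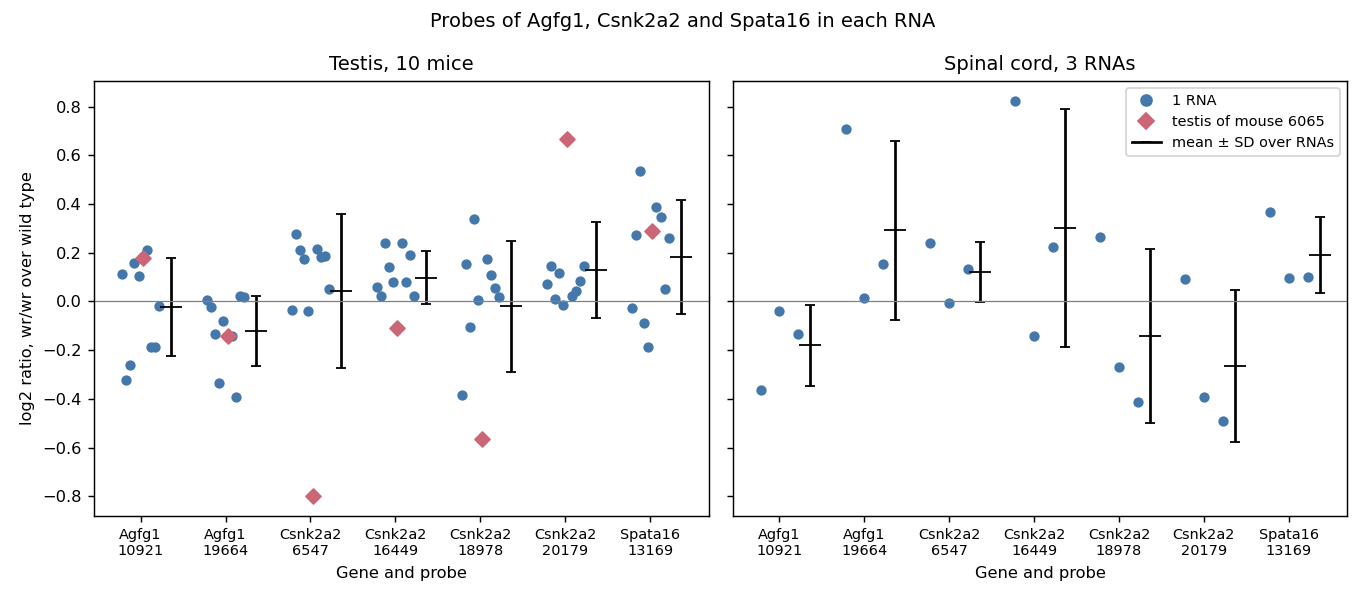
Log2 ratio of wr/wr over wild type (vertical axis) for each of the 7 probes, in 10 testes on the left and 3 spinal cord RNAs on the right; each point is 1 RNA, diamonds are the testis of mouse 6065, and bars are the mean ± SD. The testis of mouse 6065 lies farthest from the rest for Csnk2a2 probes 6547 (-0.80) and 20179 (0.67), and the cord points of most probes spread more widely than the testis points.

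Csnk2a2 encodes the alpha-prime catalytic subunit of casein kinase 2, a form abundant in testis, and male mice without it have round-headed sperm. Its 4 probes gave unlike values in wr/wr testes. Probe 16449 had a lowest log2 ratio of -0.11, a median of 0.08 and a highest of 0.24, and lay above 0 in 9 of 10 mice. Its mean was 0.10 ± 0.11 (SD, n = 10; limma adjusted p = 0.113). Mouse 6065 was the mouse below 0; it had 1 array with a value in each orientation, at -1.28 in Cy5 and 1.07 in Cy3. Without it the mean was 0.12 and the limma adjusted p 0.0496. The dye orientations of probe 16449 gave means of -0.02 on Cy5 arrays and 0.21 on Cy3 arrays over the 10 mice.

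Probe 20179 of Csnk2a2 also lay above 0 in 9 of 10 mice, with a lowest log2 ratio of -0.02, a median of 0.08 and a highest of 0.67. At least 9 mice on 1 side of 0 was seen for 2 of the 7 probes, against 19.8% of all probes. The mean of probe 20179 was 0.13 ± 0.20 (SD, n = 10), with an adjusted p from limma of 0.176 and an exact two-sided sign-flip p of 0.00586. On Cy5 arrays it was above 0 in 10 of 10 mice (mean 0.20), and on Cy3 arrays in 5 of 10 (mean 0.06). Its highest value came from mouse 6065, and without that mouse the mean was 0.07 (limma adjusted p = 0.126).

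Probe 6547 of Csnk2a2 had a median log2 ratio of 0.18 and a highest of 0.28, but a lowest of -0.80 in mouse 6065. One array of that mouse read -3.46, while its other 3 lay between -0.26 and 0.34. The mean was 0.04 ± 0.31 (SD, n = 10; limma adjusted p = 0.786), and without mouse 6065 it was 0.14 (limma adjusted p = 0.0572). Probe 18978 had a lowest value of -0.56, again in mouse 6065, a median of 0.04 and a highest of 0.34, with a mean of -0.02 ± 0.27 (SD, n = 10; limma adjusted p = 0.886) that was 0.04 without that mouse. Between the dyes these means also changed sign, with -0.05 in Cy5 and 0.13 in Cy3 for probe 6547, and -0.04 and 0.0036 for probe 18978. With all 4 probes averaged into 1 value for the gene, Csnk2a2 was 0.06 ± 0.12 (SD, n = 10; limma adjusted p = 0.327 over 16167 features).

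The 4 Csnk2a2 probes did not order the mice alike. Over 10 mice, probe 6547 correlated with probe 18978 at a Pearson r of 0.81 and with probe 16449 at 0.73, but with probe 20179 at -0.88. Without mouse 6065 these 3 correlations were 0.60, 0.41 and 0.22 over 9 mice. The negative value of that pair therefore rested on mouse 6065, whereas probes 16449 and 20179 correlated at -0.74 with it and at -0.53 without it. Which transcript part each probe covers was not known here, since no probe sequence was at hand.

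Agfg1, also called Hrb, encodes a protein with an ArfGAP domain that sits on the outer face of proacrosomal vesicles, and in mice without it these vesicles gather but do not fuse into an acrosome. Probe 19664 had a lowest log2 ratio of -0.39 in mouse 6163, a median of -0.11 and a highest of 0.02 in wr/wr testes. It lay below 0 in 7 of 10 mice, and the 3 others were within 0.02 of 0. Its mean was -0.12 ± 0.14 (SD, n = 10), with an adjusted p from limma of 0.109 and an exact two-sided sign-flip p of 0.0215.

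The 2 dye orientations of Agfg1 probe 19664 went opposite ways. On Cy3 arrays it was below 0 in all 10 mice, with a mean of -0.31 and a limma adjusted p of 0.0326. On Cy5 arrays it was above 0 in 8 of 10 mice, with a mean of 0.06 and a limma adjusted p of 0.587. Probe 10921 of Agfg1 showed the reverse, with -0.17 on Cy5 arrays and 0.12 on Cy3 arrays. Its log2 ratio over both orientations had a lowest value of -0.32, a median of 0.04 and a highest of 0.21, and its mean was -0.02 ± 0.20 (SD, n = 10; limma adjusted p = 0.841). Over the 10 mice the 2 Agfg1 probes correlated at a Pearson r of -0.12, and their average for the gene was -0.07 ± 0.12 (SD, n = 10; limma adjusted p = 0.25).

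**Figure D2:**
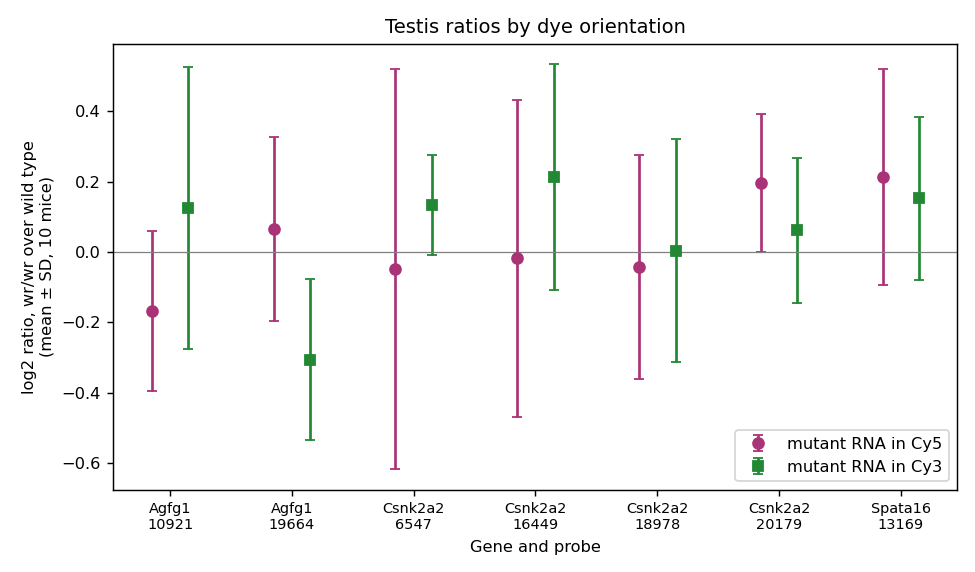
Mean log2 ratio of wr/wr over wild type in testis with its SD over 10 mice (vertical axis), for each of the 7 probes, with mutant RNA in Cy5 as circles and in Cy3 as squares. Spata16 has both means above 0 (0.21 and 0.15), as has Csnk2a2 probe 20179 (0.20 and 0.06), whereas the other 5 probes change sign between the orientations.

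Spinal cord, where the wobbler mutation leads to loss of motor neurons, was the second tissue, and no acrosome is built there. None of the 7 probes passed the test in wr/wr cord: 0 of 7 had an adjusted p under 0.05, against 0% of the 17055 probes tested (limma). At an unadjusted p under 0.05 there were again 0 of 7, against 8.65% of all. The adjusted p of the 7 probes ran from 0.573 to 0.742 (limma, 3 RNAs), and all 7 intervals included 0. Those intervals ran from 0.603-fold to 1.92-fold of wild type, much wider than in testis, and a change within them was not detectable with 3 RNAs.

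Spata16 had log2 ratios of 0.37 in cord 5995, 0.10 in Pool1 and 0.10 in Pool2, with a mean of 0.19 ± 0.16 (SD, n = 3). Probe 19664 of Agfg1 had 0.71, 0.01 and 0.15 in the same order, with a mean of 0.29 ± 0.37 (SD, n = 3). Probe 10921 of Agfg1 had -0.36, -0.04 and -0.14, with a mean of -0.18 ± 0.17 (SD, n = 3). All 3 RNAs thus lay on 1 side of 0 for these 3 of the 7 probes, as for 39.3% of all probes, and cord 5995 was the farthest from 0 each time.

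The Csnk2a2 probes again differed among themselves in cord. Probe 16449 had log2 ratios of 0.82 in cord 5995, -0.14 in Pool1 and 0.22 in Pool2, and probe 6547 had 0.24, -0.01 and 0.13. Probe 20179 had 0.09, -0.39 and -0.49, and probe 18978 had 0.26, -0.27 and -0.41. Cord 5995, with 2 arrays where the pools had 4, gave the highest value for each of the 4 Csnk2a2 probes.

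Whether a ratio differed between the tissues was tested with testis minus cord over all 13 RNAs. Agfg1 probe 19664 was 0.41 lower on the log2 scale in testis, with means of -0.12 in testis and 0.29 in cord (difference -0.41, 95% interval -0.70 to -0.13, limma adjusted p = 0.0424). It was the 1 of 7 probes called, against 21.2% of the 17005 probes tested (10.8% higher and 10.4% lower). At an unadjusted p under 0.05 there were 2 of 7 probes, against 36.8% of all.

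This difference did not hold under several other settings. Its fit used 1 spread for both tissues, although the median SD was 0.173 in testis and 0.264 in cord. With a spread of its own for each tissue, the interval was -0.84 to 0.01 and the limma adjusted p 0.327. Paired by animal, with the replicate as a block, the difference was -0.46 ± 0.51 (SD, n = 3 pairs; limma adjusted p = 0.444). Without mouse 6065 it was -0.41 (limma adjusted p = 0.0529). Without cord 5995 it was -0.20 (limma adjusted p = 0.233), so the size of the difference turned on that 1 RNA. Averaging both Agfg1 probes gave -0.13 (limma adjusted p = 0.299).

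Csnk2a2 probe 20179 had a testis minus cord difference of 0.39 (95% interval 0.08 to 0.70, limma adjusted p = 0.0651). Its means were 0.13 in testis and -0.26 in cord. It was called in 4 of 25 alternatives: without mouse 6065 (0.33, limma adjusted p = 0.039), without cord 5995 (0.57, limma adjusted p = 0.0249), with arrays scaled (0.39, limma adjusted p = 0.017) and on Cy3 arrays alone (0.52, limma adjusted p = 0.0164). With a spread of its own for each tissue, the interval of probe 20179 was -0.13 to 0.91 and the limma adjusted p 0.442. Paired by animal, its difference was 0.40 ± 0.35 (SD, n = 3 pairs; limma adjusted p = 0.426). With the sign of Cy3 arrays turned, which removes a shift shared by both dye orientations, it was -0.13. Spata16 had a difference of -0.01 with an interval of -0.31 to 0.30, from means of 0.18 in testis and 0.19 in cord. The dye orientations behind that cord mean were unlike. Spata16 had 0.79 in Cy5 and -0.05 in Cy3 for cord 5995, 0.155 and 0.04 for Pool1, and -0.29 and 0.49 for Pool2. The near-equal means therefore do not show a like shift in both tissues. The other 4 probes had differences between -0.20 and 0.16 (lowest limma adjusted p = 0.338).

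**Figure D3:**
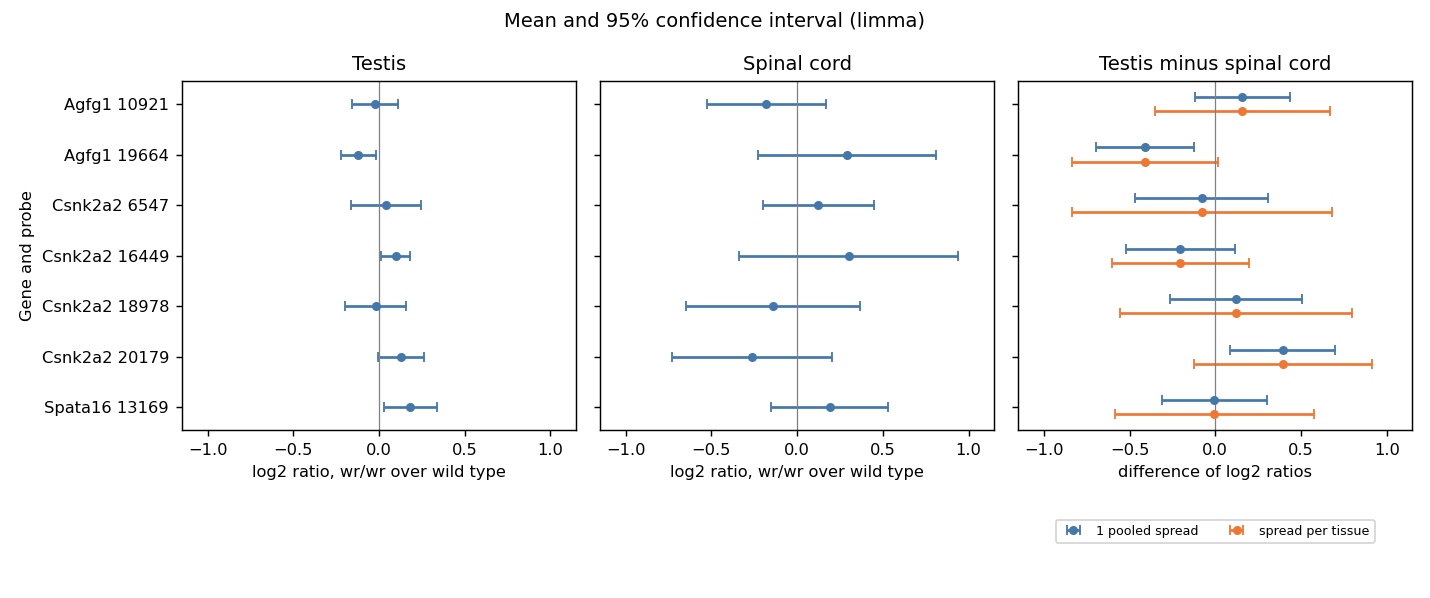
Mean log2 ratio of wr/wr over wild type with its 95% interval from limma, in testis (10 mice), in spinal cord (3 RNAs) and as testis minus cord, the last with 1 pooled spread and with a spread for each tissue. The testis intervals are the narrowest, every cord interval includes 0, and the interval of Agfg1 probe 19664 in the third panel leaves out 0 only with the pooled spread (-0.70 to -0.13, against -0.84 to 0.01).

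Probes most alike to 1 probe of each gene were ranked by Pearson r over the 10 testes, among named probes with a value in every mouse. Spata16 was most alike to Meig1 (r = 0.97), a gene needed for the sperm manchette, then to Cetn4 (0.97), a centrin, and Rpl28 (0.96), a ribosomal protein. In wr/wr testes Meig1 rose by 0.27 and Rpl28 by 0.24 on the log2 scale (limma adjusted p = 0.0303 and 0.0174), and Cetn4 had a mean of 0.16 (limma adjusted p = 0.0574). At r of 0.8 or more there were 193 of 13342 probes for Spata16, 120 of 13339 for Csnk2a2 probe 16449 and 13 of 13341 for Agfg1 probe 19664. The probes closest to Csnk2a2 probe 16449 were Cant1 (0.95), Prss45 (0.93) and Recql (0.92), and those closest to Agfg1 probe 19664 were Pxk (0.92), Relt (0.90) and Pde1c (0.87). These likenesses rest on ratios that share arrays and a wild-type pool, and are descriptions.

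Spata16 ranked the mice much as the spermatid markers did, although the Pearson correlation did not pass after adjustment. Over 10 mice, its log2 ratio and the median of 19 probes of round and elongating spermatid genes had a Spearman rho of 0.92 (permutation p = 0.00059, adjusted 0.00885 over 15 relations) and a Pearson r of 0.74 (permutation p = 0.0122, adjusted 0.0913), both two-sided. Without the 2 mice farthest from the median of the marker axis, r was 0.57 over 8 mice. Mouse 5995 had the lowest marker median (-0.46) with a Spata16 ratio of -0.09, and mouse 5907 had the highest (0.36) with a Spata16 ratio of 0.53. Without mouse 6065 the rho was 0.93. Within one dye orientation it was 0.79 on Cy5 arrays and 0.46 on Cy3 arrays.

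**Figure D4:**
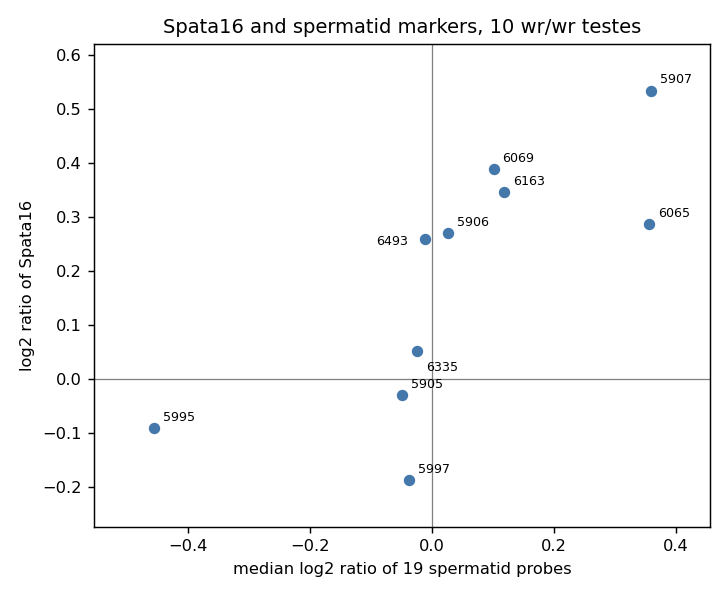
Log2 ratio of Spata16 (vertical axis) against the median log2 ratio of 19 spermatid marker probes (horizontal axis) in the 10 wr/wr testes, each point 1 mouse with its number. Spata16 is higher in mice with a higher marker median (Spearman rho of 0.92), from -0.09 in mouse 5995 to 0.53 in mouse 5907.

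With the Leydig markers, genes of the steroid-making cells between the tubules, Spata16 had an r of -0.78 (permutation p = 0.00602, adjusted 0.0903) and a rho of -0.71 (permutation p = 0.0277, adjusted 0.207). Without the 2 farthest mice that r was -0.42. Within one dye orientation it was -0.07 on Cy5 arrays and -0.59 on Cy3 arrays. With the Sertoli markers Spata16 had an r of 0.61 (permutation p adjusted 0.306). With the spermatocyte markers the r was 0.43, and with acrosome content and membrane genes 0.45 (permutation p adjusted 0.499 for each). Neither Agfg1 probe 19664 nor Csnk2a2 probe 16449 passed with any of 5 lists, and the lowest adjusted p for a Pearson r among those 10 relations was 0.499. How far cell makeup entered the Spata16 ratio was not tested.

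Of the 19 spermatid marker probes, 0 were called in wr/wr testis (limma; 4 had an unadjusted p under 0.05, with the smallest p for Tssk1, a testis kinase, and Tnp2, a transition protein of sperm chromatin), with a median of 0.03, and single mice had medians from -0.46 to 0.36. Sertoli markers, genes of the nurse cells of the tubule, had 7 of 12 probes called higher (Cst12, Ctsl, Clu, Defb36, Amhr2, Inha and Sox9) and 0 lower, with a median of 0.24. Sox9 was called at probe 1477, while its probe 18047 had a mean of -0.14 (limma adjusted p = 0.14). Trf had -0.16 at probe 7224 and -0.02 at probe 17158. The Inha call held in 2 of 10 fits that left out 1 mouse, with means of 0.45 on Cy5 arrays and 0.03 on Cy3 arrays. Leydig markers had 4 of 7 probes called lower (Ptgds, Cyp17a1, Hsd17b3 and Cyp11a1) and 0 higher, with a median of -0.27. The Leydig gene Hsd3b1 went the other way, with a mean of 0.25, above 0 in 8 of 10 mice (limma adjusted p = 0.0665). The Cyp11a1 call held in 3 of 10 fits that left out 1 mouse, and those of Ptgds, Cyp17a1 and Hsd17b3 in all 10. With a trended robust prior, Ptgds (limma adjusted p = 0.102), Cyp17a1 (0.0908) and Cyp11a1 (0.0554) were not called. Nor was the Sertoli gene Cst12 under that setting (limma adjusted p = 0.0715). Spermatocyte markers had 3 of 8 probes called higher (Ldhc, Tdrd1 and Mael) and 1 lower (Rec8), with a median of 0.13. Mael had a mean of 0.51 on Cy5 arrays and 0.01 on Cy3 arrays (limma adjusted p = 0.919 on Cy3 arrays alone). Beside these counts, 7.28% of all probes were called higher and 5.06% lower. The lists were chosen with earlier results of these data known, so a share above that of all probes is no test. These shifts stand beside the member genes' ratios, and their part in them was not tested.

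Other genes whose loss disturbs the acrosome or rounds the head were represented by 27 probes of 19 of 25 listed genes. Of these probes 2 were called higher and 0 lower, with a median of 0.07, against 7.28% called higher over all probes, a share close to that of the list. Hsp90b1, a chaperone of the endoplasmic reticulum, rose by 0.31 ± 0.23 (SD, n = 10; limma adjusted p = 0.0208) and was above 0 in 9 of 10 mice. Mfsd14a, a transporter-like membrane protein, rose at probe 12620 by 0.25 ± 0.22 (SD, n = 10; limma adjusted p = 0.0352), while its other probe had a mean of 0.07. The Mfsd14a call held in 5 of the 10 fits that each left out 1 mouse, and the Hsp90b1 call in 8.

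Genes for binding partners and complexes of the 6 proteins were measured with 19 probes of 9 of 14 listed genes, and 4 probes were called higher and 1 lower, with a median of 0.04, against 7.28% called higher and 5.06% lower over all probes. Rab6a, a Golgi GTPase, rose by 0.28 ± 0.20 at probe 19915 (SD, n = 10; limma adjusted p = 0.0209) and had 0.09 at its other probe. Eps15, an endocytic adaptor that binds Agfg1, rose by 0.14 ± 0.07 (SD, n = 10; limma adjusted p = 0.0195). Arf1, the GTPase on which ArfGAP proteins act, rose by 0.17 ± 0.13 (SD, n = 10; limma adjusted p = 0.0276). These 3 were above 0 in all 10 mice, and 6.48% of all probes had every mouse on 1 side of 0. With the sign of Cy3 arrays turned, Eps15, Rab6a and Mfsd14a had means just below 0, because their Cy5 and Cy3 means were alike. Those means were 0.13 and 0.15 for Eps15, 0.27 and 0.29 for Rab6a, and 0.25 and 0.25 for Mfsd14a.

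Becn1, an autophagy protein known as a partner of Gopc, rose by 0.17 ± 0.11 at probe 10094 (SD, n = 10; limma adjusted p = 0.0258). That probe had 0.30 on Cy5 arrays and 0.03 on Cy3 arrays (limma adjusted p = 0.775 on Cy3 arrays alone). Becn1 probe 3756 had a mean of 0.09 (limma adjusted p = 0.373). Leaving out 1 mouse at a time, the call of Eps15 held in 10 of 10 fits, Rab6a in 9, Becn1 in 7 and Arf1 in 6.

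Csnk2a1, the alpha catalytic subunit of casein kinase 2 and paralog of Csnk2a2, was lower at 1 of its 3 probes. Probe 13572 fell by 0.19 on the log2 scale (SD 0.15, n = 10; limma adjusted p = 0.0325) and was below 0 in all 10 mice, and the call held in 5 of 10 fits that left out a mouse. The other 2 Csnk2a1 probes had means of 0.04 and -0.06. Among paralogs of the 6 genes, this was the 1 probe called of 7 (4 of 5 genes), against 5.06% called lower over all probes. Dpy19l1, a paralog of Dpy19l2, had a mean of -0.13 ± 0.12 (SD, n = 10; limma adjusted p = 0.0584).

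Proteins of the acrosome's content and membrane were measured with 12 probes of 9 of 14 listed genes. Of these, 1 probe was called lower and 0 higher, with a median of 0.04, against 5.06% called lower over all probes. Acr, the protease acrosin, fell by 0.14 at probe 9674 (SD 0.11, n = 10; limma adjusted p = 0.0379), and had a mean of -0.11 at its other probe (limma adjusted p = 0.107). The call held in 2 of 10 fits that left out a mouse. Acrbp, which binds the acrosin precursor, had a mean of 0.13 ± 0.13 (SD, n = 10; limma adjusted p = 0.0589). In cord, 0 probes of these lists were called, and 0 of all 17055 probes tested.

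**Figure D5:**
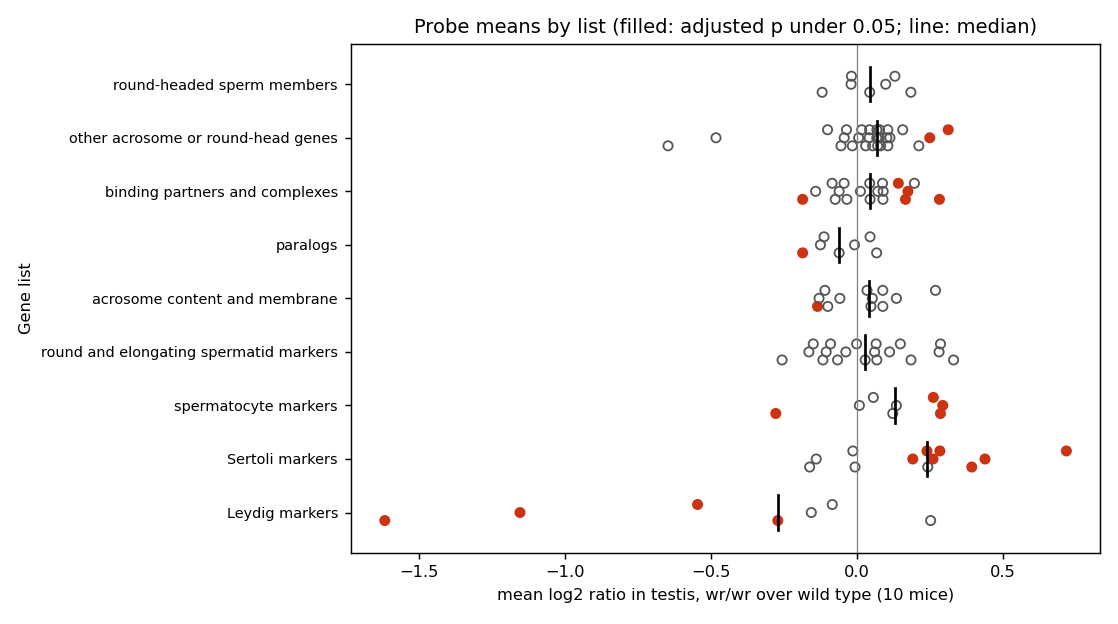
Mean log2 ratio of wr/wr over wild type in testis (horizontal axis, 10 mice) for each probe of the 9 gene lists, filled where the limma adjusted p is under 0.05, with a line at each list's median. The 7 probes of the round-headed sperm genes are all open and lie between -0.12 and 0.18, whereas Leydig markers reach furthest below 0 and Sertoli markers furthest above.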

How the data were processed

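The values were the deposited log2 ratios, 1 per probe and array over 50 arrays; how the authors corrected background and normalized is not given in the sources used here. Per the labels' protocols, cDNA was labelled indirectly with Cy3 or Cy5. Of 20355 probes, 14030 had 1 gene symbol, 5 several and 6320 none here; 13994 matched the RefSeq gene table by gene ID. Each array was centred on its median, and Cy5 and Cy3 means were averaged per RNA. Values over 10 in size (1472, none on a member probe) were kept. limma 3.58.1 in R 4.3.3 tested each tissue against 0 (at least 8 testis mice, or all 3 cord RNAs, with both dyes) and testis minus cord, with Benjamini-Hochberg adjustment at 0.05; the fits were tested on simulated data, where the tissue difference with 1 spread made too many calls when cord varied more than testis, as it does here. Array number limits precision. Cord and testis RNAs came from the same animals; their deviations from the tissue means correlated at 0.00842 (5995), -0.00867 (Pool1) and 0.00547 (Pool2). The members and gene lists were chosen with earlier results of these data known. Named genes are all member probes, each list's called probes and its 2 with the smallest p, and the 3 probes most alike to 1 probe of each gene. Hsd3b1 and Trf were named after their values were seen, because they went against the calls of their lists.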

Additional observations from a re-analysis of the deposited data

Results flagged for a closer look

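Mouse 6065 lay far from the other 9 testes for 2 of the 7 probes, with a gap to its nearest neighbour above Dixon's 95% critical value. Its log2 ratio was -0.80 for Csnk2a2 probe 6547 and 0.67 for Csnk2a2 probe 20179. Chance alone would mark about 1 in 20 such groups. The low value came with 1 array at -3.46, and the high value averaged 0.74 over 2 Cy5 arrays (0.66 and 0.82) and 0.60 over 2 Cy3 arrays (1.52 and -0.33). The ratios of Agfg1 probe 19664 differed between testis and cord by -0.41 on the log2 scale in the test of the difference itself, which a separate spread for each tissue or pairing by animal did not keep.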

How the results depend on the processing

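In testis, 0 of the 7 probes were called, and 9 of 11 alternatives and 9 of 10 fits without 1 mouse gave the same count. The count was 1 with arrays scaled to the same spread (Csnk2a2 probe 16449, limma adjusted p = 0.0329) and 1 on Cy3 arrays alone (Agfg1 probe 19664, limma adjusted p = 0.0326). It ran from 0 to 1 without single mice, with 1 without mouse 6065. In cord the count was 0 in 10 of 10 alternatives and without each RNA. In each of these fits 0 of all probes were called, so the member count could not have differed. For testis minus cord, 1 probe was called. The count was 2 with scaled arrays and 2 on Cy3 arrays alone, but 0 on Cy5 arrays alone, 0 with the sign of Cy3 arrays turned, 0 with the replicate block, 0 with a spread for each tissue (chosen after seeing the data) and 0 with probes of a gene averaged. Without single RNAs it ran from 0 to 2: it was 0 without testis 5906, 5907, 5995, 5997, 6069, 6163, 6335 or 6493, and 2 without Pool1. Without testis 6065 or cord 5995 it stayed 1, but the probe called was Csnk2a2 20179 (limma adjusted p = 0.039 and 0.0249), not Agfg1 19664 (limma adjusted p = 0.0529 and 0.233). For the gene lists, 23 probes were called, against 12 on Cy3 arrays alone, 11 with the sign of Cy3 arrays turned, and 10 to 24 without single mice (10 without 6493, 15 without 6069). Averaging probes was not run for the lists.

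Turning the sign of Cy3 arrays changed the sign of 3 of the 7 member means in testis, 2 in cord and 4 in testis minus cord, among them Agfg1 probe 19664 (0.19) and Csnk2a2 probes 16449 (-0.12) and 6547 (-0.09) in testis. Of called values it reversed 7: Agfg1 probe 19664 in testis minus cord (0.036), Mfsd14a (-9e-04), Eps15 (-0.0079), Rab6a (-0.011), Sox9 (-0.060), Ptgds (0.10) and Cyp17a1 (8e-04). Each of these 7 had the same sign on Cy5 arrays alone and on Cy3 arrays alone. Turning the sign removes a shift that both orientations share and leaves only the gap between them. A reversal of these 7 therefore does not show that the orientations disagreed. With the replicate block, which pairs RNAs by animal, 0 of 16983 probes were called between tissues. Over all probes, the testis count of 2494 was 3406 on Cy5 arrays alone and 3134 with scaled arrays, but 1352 on Cy3 arrays alone, 949 with the sign turned, 1549 with a trended robust prior, and, leaving out 1 mouse, 1539 (5906), 1494 (5995), 1241 (5907), 1233 (6335), 998 (6069) or 752 (6493). For testis minus cord the count of 3604 was 4640 on Cy3 arrays alone, 4684 without Pool1, 1604 on Cy5 arrays alone, 1832 with the sign turned and 8 with a spread for each tissue. The causes were not tested. Intensities were not used here, so which probes lay near background is unknown.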

Other observations

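In testis, 2 genes of the wider acrosome list, chosen after their values were seen, had probes that differed widely. Gba2, a glucosylceramidase whose loss in mice gives round-headed sperm, had a mean log2 ratio of -0.65 ± 0.64 at probe 19422 (SD, n = 8; limma adjusted p = 0.0664) and 0.03 ± 0.25 at probe 13737 (SD, n = 10; limma adjusted p = 0.824). Atg7, an autophagy enzyme that acrosome formation needs in mice, had -0.48 ± 0.71 at probe 2597 (SD, n = 9; limma adjusted p = 0.157) and -0.04 ± 0.37 at probe 6780 (SD, n = 10; limma adjusted p = 0.81). Neither gene was called at either probe.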
